A study of Homo sapiens with 34 samples.

Results

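The forkhead (FOX) and SOX genes code for 2 large families of DNA-binding transcription factors. They were chosen by name, as the protein-coding genes of chromosomes 1 to 22 and X whose symbol is FOX with a letter from A to S and digits, with or without a suffix, or SOX with digits. The rule found 71 of 19970 genes, 52 FOX and 19 SOX. FOXL2NB matched it as a neighbour of FOXL2 but codes for no forkhead protein. FOXD4, its 5 copies (FOXD4L1, FOXD4L3, FOXD4L4, FOXD4L5, FOXD4L6) and FOXO3B, a near-copy of FOXO3, share sequence with other genes, so their peaks are uncertain under the mapping quality filter of the files.

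The cells were KELLY, a human neuroblastoma line with amplified MYCN that carried a doxycycline-inducible hairpin against RUNX1T1, a transcriptional co-repressor. They received DMSO (control) or doxycycline, which switches the hairpin on, for 72 h. In each treatment 3 libraries were made for each of 5 histone marks (H3K4me3, H3K4me2, H3K4me1, H3K27ac, H3K27me3), which gave 30 peak lists. Both groups carry the hairpin, the model is a single line, and doxycycline itself and the knockdown cannot be told apart, since cells with a control vector and doxycycline were not analysed here. Peak lists hold no RNA level, so the knockdown was not checked here. The labels do not say that the replicates came from separate cultures, so the spread between them may be technical.

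Forkhead factors bind DNA through a winged-helix domain and SOX factors through an HMG box related to that of SRY. Many of them set cell identity in the embryo, among them SOX9, SOX10 and FOXD3 in the neural crest, from which the sympathetic lineage and neuroblastoma arise, while others, such as the FOXO group, act in most cells. At start sites H3K4me3 and H3K27ac mark promoters in use, H3K27me3 is laid down by Polycomb repressive complex 2 at silent genes, and promoters with both H3K4me3 and H3K27me3 are called bivalent. H3K4me1 and H3K4me2 surround active and primed regulatory regions.

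The libraries differed in 2 ways that touch the values below. The calling depth, the smaller of the ChIP and input read totals, was 71.9 to 81.1 M reads in DMSO and 57.0 to 63.4 M in doxycycline (M, 1e6), so depth and treatment cannot be told apart. The H3K27me3 lists also fell into a long and a short class by the fragment length the peak caller estimated, 256, 112 and 105 bp in DMSO replicates 1 to 3 and 265, 280 and 108 bp in doxycycline. Replicate 3 had 161754 and 140333 H3K27me3 peaks in DMSO and doxycycline against 59338 to 87676 in the other lists. As a check of the cell type, all 8 adrenergic neuroblastoma markers (among them HAND2, ISL1 and GATA3) had active promoters in both treatments. Of 6 Schwann cell markers 0 were active in DMSO and 1 in doxycycline, and none of 4 haematopoietic markers was active in either.

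Each gene was given a state per treatment from peaks within 1 kb of any annotated start site, a mark counting as present where all 3 libraries had such a peak. Active promoters had H3K4me3 and H3K27ac without H3K27me3, bivalent ones had H3K4me3 and H3K27me3, Polycomb ones had H3K27me3 without H3K4me3, bare ones had none of the 5 marks, and the rest were called other. In DMSO 19 of the 71 genes were active, 22 bivalent, 20 Polycomb, 3 bare and 7 other. In doxycycline the counts were 19, 23, 18, 5 and 6. Over all protein-coding genes 59.4% were active, 11.1% bivalent, 9.77% Polycomb, 13.2% bare and 6.5% other in DMSO, and 58.2%, 12.1%, 11.1%, 12.7% and 5.99% in doxycycline. The FOX and SOX genes were thus active at 26.8%, bivalent at 31.0% and Polycomb at 28.2% in DMSO. Taken 1 replicate number at a time, the active count was 16.67 ± 1.53 (SD, n = 3) in DMSO and 17 ± 1 in doxycycline. The bivalent count was 26.33 ± 3.06 and 27 ± 3, so the treatments differed by less than 1 SD in both counts. That did not hold for the Polycomb count, 19 ± 1 in DMSO and 18 ± 0 in doxycycline (all genes, mean 11.3% and 12.3%).

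**Figure D1:**
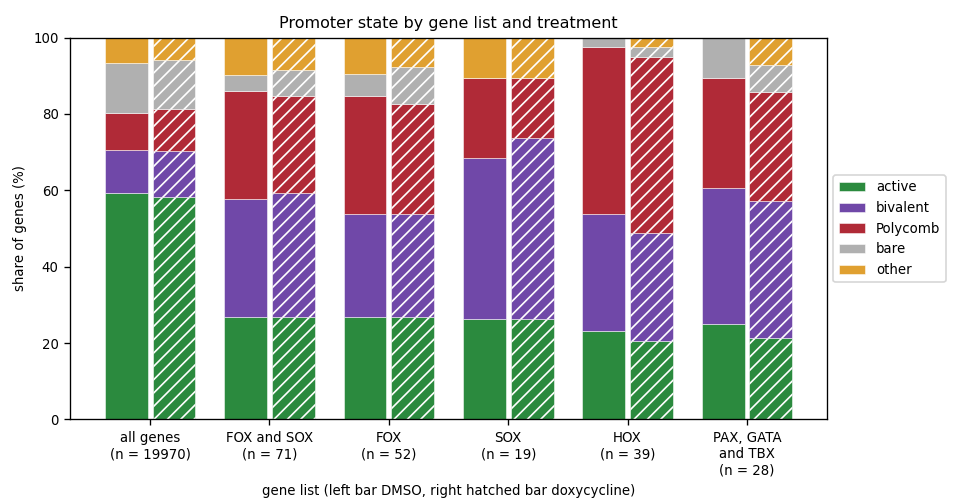
Share of genes (vertical axis, %) in each promoter state for all protein-coding genes, the 71 FOX and SOX genes, the 52 FOX and 19 SOX genes apart, 39 HOX genes and 28 PAX, GATA and TBX genes; the left bar of each pair is DMSO and the hatched right bar doxycycline. The bivalent and Polycomb parts together fill 59.2% of the FOX and SOX bar in DMSO against 20.9% of the bar of all genes.

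Other developmental regulators are given for comparison. Of 39 HOX genes 9 were active, 12 bivalent, 17 Polycomb and 1 bare in DMSO. Of 28 PAX, GATA and TBX genes 7 were active, 10 bivalent, 8 Polycomb and 3 bare. Of 15 neural crest genes outside the FOX and SOX families 7 were active, 5 bivalent (MSX1, MSX2, PAX7, TFAP2A, ZIC1), 2 Polycomb (PAX3, TBXT) and 1 other (SNAI2), with the same counts in doxycycline. Of 8 mesenchymal neuroblastoma markers 3 were active and 4 bivalent in both treatments.

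Subfamilies were uneven. All 5 FOXO genes, both FOXK genes, 3 of 4 FOXN genes and all 3 genes of the SOXC group (SOX4, SOX11, SOX12, which drive neuronal differentiation) were active in both treatments. None of the 5 SOXB genes was: SOX2, SOX3 and SOX21 were bivalent and SOX1 and SOX14 Polycomb. The SOXE group, which acts in neural crest and glia, had a bivalent gene (SOX9), a Polycomb gene (SOX8) and a gene in neither class (SOX10) in DMSO. All FOXA, FOXB, FOXC, FOXE and FOXF genes, which pattern endoderm, mesoderm and head, were bivalent or Polycomb, as were 8 of 9 FOXD genes in DMSO, the exception being the bare copy FOXD4L5.

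Promoter sequence is shown for an active, a bivalent, a Polycomb and a bare gene, to set their CpG content beside their marks. The sequences are RefSeq promoters (GRCh38.p14), from 250 bases before to 50 after the start, each 300 bases long, printed 5′ to 3′ on the strand of the gene, with every CG in capitals.
SOX4 (active, chr6:21593501-21593800, plus strand): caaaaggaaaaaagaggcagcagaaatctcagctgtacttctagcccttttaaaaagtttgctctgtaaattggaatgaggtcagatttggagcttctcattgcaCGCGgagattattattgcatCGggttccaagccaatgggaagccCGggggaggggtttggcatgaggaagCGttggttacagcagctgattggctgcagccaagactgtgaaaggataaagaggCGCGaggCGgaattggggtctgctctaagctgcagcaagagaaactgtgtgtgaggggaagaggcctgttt
FOXD3 (bivalent, chr1:63322317-63322616, plus strand): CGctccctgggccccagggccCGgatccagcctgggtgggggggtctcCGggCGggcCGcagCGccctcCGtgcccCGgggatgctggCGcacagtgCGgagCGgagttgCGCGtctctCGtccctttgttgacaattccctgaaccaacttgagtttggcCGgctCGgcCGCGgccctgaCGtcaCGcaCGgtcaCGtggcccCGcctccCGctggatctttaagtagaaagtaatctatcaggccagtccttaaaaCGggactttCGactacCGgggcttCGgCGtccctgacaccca
FOXQ1 (Polycomb, chr6:1311848-1312147, plus strand): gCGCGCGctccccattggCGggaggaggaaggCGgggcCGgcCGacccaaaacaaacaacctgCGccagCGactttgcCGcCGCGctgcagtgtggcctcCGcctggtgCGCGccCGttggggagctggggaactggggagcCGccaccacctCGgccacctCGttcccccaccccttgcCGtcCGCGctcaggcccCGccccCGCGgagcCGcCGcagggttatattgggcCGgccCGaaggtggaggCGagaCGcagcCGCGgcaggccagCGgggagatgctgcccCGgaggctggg
FOXR2 (bare, chrX:55623150-55623449, plus strand): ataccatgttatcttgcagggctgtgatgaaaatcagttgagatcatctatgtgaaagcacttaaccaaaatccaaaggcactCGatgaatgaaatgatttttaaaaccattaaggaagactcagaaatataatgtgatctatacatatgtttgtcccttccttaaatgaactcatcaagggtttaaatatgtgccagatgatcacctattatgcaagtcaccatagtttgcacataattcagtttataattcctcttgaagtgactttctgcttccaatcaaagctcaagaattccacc

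These windows hold 8 CG in SOX4, 29 in FOXD3, 35 in FOXQ1 and 1 in FOXR2. Peaks over the very same 300 bases are given as a description. These bases lie inside the windows whose peaks set the states, so they are no separate check. The SOX4 window had H3K4me3 and H3K27ac in 3 of 3 libraries of each treatment and H3K27me3 in none. The FOXD3 window had H3K4me3 and H3K27me3 in 3 of 3, and H3K27ac in 2 of 3 DMSO and 0 of 3 doxycycline libraries. The FOXQ1 window had H3K27me3 alone in 3 of 3, and the FOXR2 window no peak but H3K27me3 in 1 doxycycline library.

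Of the 71 genes 51 had a RefSeq promoter by symbol, 71.8%, so CG counts describe those 51 and the check of sequence is void for the whole set. Their median was 38.0 CG in 15 active genes, 24.5 in 16 bivalent, 19.0 in 14 Polycomb, 2.0 in 3 bare and 16 in 3 other genes. Over all 15321 matched genes the medians were 26.0, 24.0, 6.0, 3.0 and 8.0. In 98.4% of those genes the median over their promoters was not empty of CG. Among active genes FOXK1 and FOXK2 reached 55 CG and SOX12 54, above 99.6% of all genes in SOX12, while SOX4 with 8 was above 21.9%. Among Polycomb genes FOXI3 had 39 and SOX1 37. The E-box CACGTG, which reads the same on both strands and is bound by MYCN with MAX, was found in 3 of the 51 (FOXD3, FOXK1, FOXP4) and in 11% of all matched genes. The forkhead motif TGTTTAC, on either strand, was found in 4 (FOXO4, FOXP1, SOX12, SOX6) and in 3.8% of all matched genes. A motif counted where any promoter of the gene held it, and FOXP1 and SOX6 have 6 and 5 promoters.

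Peaks in each library show how firm the states were. H3K4me3 peaks lay at 44, 44 and 41 of the 71 genes in DMSO and at 46, 44 and 42 in doxycycline, a mean of 60.6% and 62.0% against 73.5% and 73.3% of all genes. H3K27me3 peaks lay at 48, 45 and 43 in DMSO and at 48, 45 and 42 in doxycycline, a mean of 63.8% and 63.4% of the genes against 26.0% and 27.9% of all genes. H3K27ac peaks lay at 35, 33 and 32 and at 35, 32 and 31, a mean of 46.9% and 46.0% against 68.1% and 67.4% of all genes. The treatments overlapped for these 3 marks. H3K4me2 peaks lay at 51, 43 and 42 genes in DMSO and at 58, 46 and 47 in doxycycline, 5.0 more on average (SD of the 3 same-numbered differences 2.0), a mean of 63.8% and 70.9% against 75.1% and 76.5% of all genes, and replicate 1 was the highest in both treatments. H3K4me1 peaks lay at 55, 52 and 49 and at 60, 48 and 49 genes, a mean of 73.2% and 73.7% against 74.1% and 73.3% of all genes. At 41 genes H3K4me3 was present in all 6 libraries and at 25 in none. The corresponding counts were 40 and 22 for H3K27me3 and 29 and 35 for H3K27ac.

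**Figure D2:**
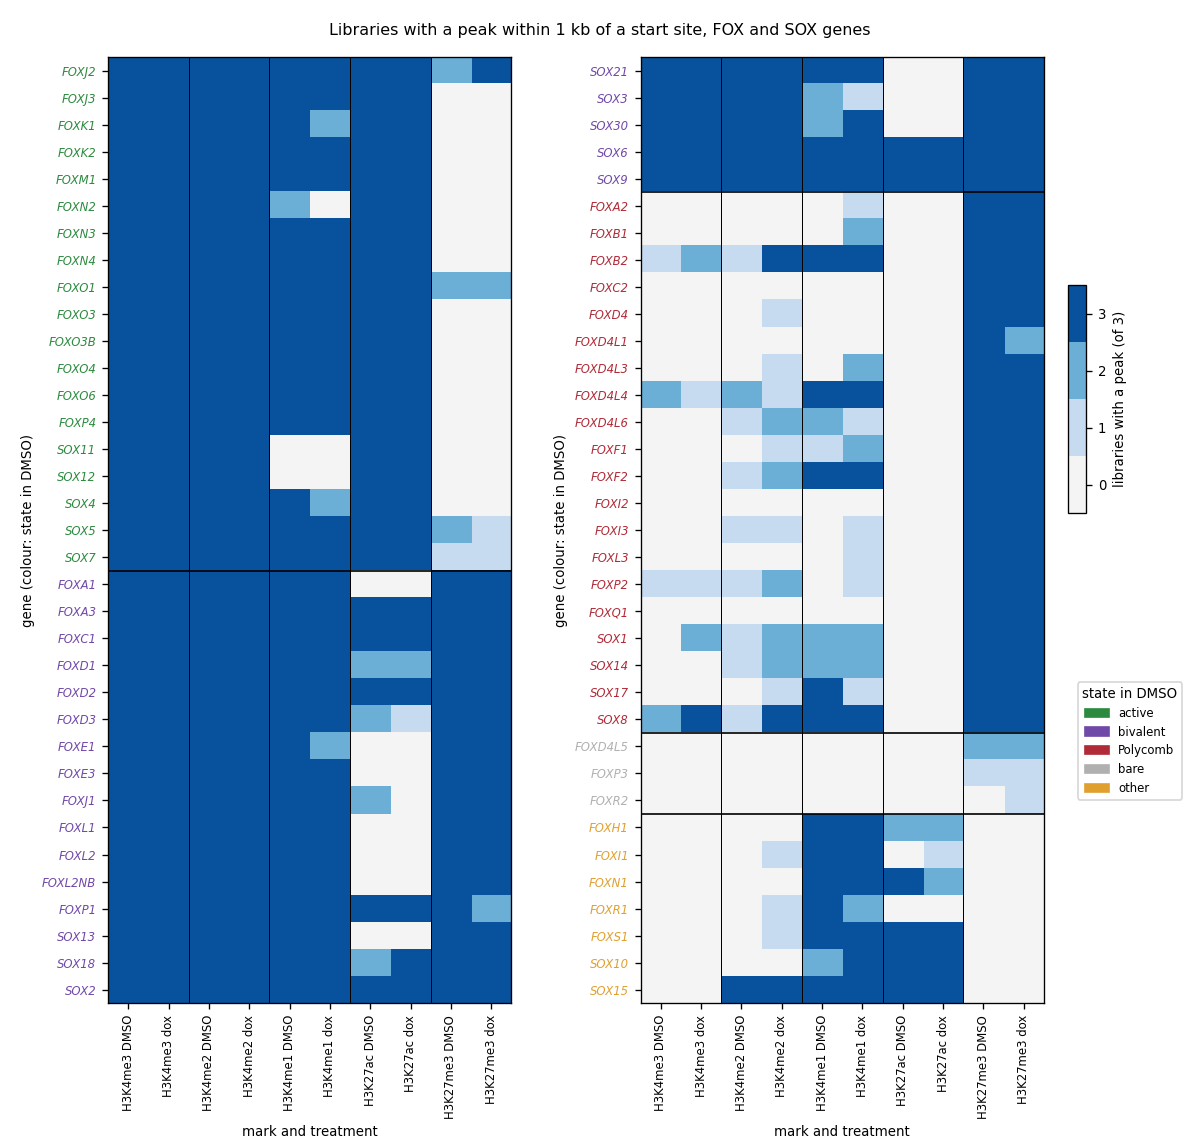
Number of libraries (colour, 0 to 3) with a peak within 1 kb of a start site for 70 of the FOX and SOX genes (rows, grouped and coloured by the state in DMSO) and each mark and treatment (columns). Active and bivalent genes share full H3K4me3 and H3K4me2 columns and part at H3K27me3, and the H3K27ac columns are empty in all 20 Polycomb genes.

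The active genes were FOXJ2, FOXJ3, FOXK1, FOXK2, FOXM1, FOXN2, FOXN3, FOXN4, FOXO1, FOXO3, FOXO3B, FOXO4, FOXO6, FOXP4, SOX4, SOX5, SOX7, SOX11 and SOX12 in DMSO. SOX11 (chr2:5692384-5701385, 1 start site), a neuronal differentiation factor, carried the longest H3K4me3 peak at a start site among them. It spanned 8.91, 8.92 and 8.81 kb in DMSO and 8.89, 8.92 and 8.78 kb in doxycycline. Its mean of 8.88 kb exceeded 99.7% of the 14504 genes with such a peak in all DMSO libraries. The SOX11 H3K27ac peak was as long, 8.78, 8.95 and 9.89 kb in DMSO and 8.74, 9 and 9.31 kb in doxycycline, so the treatments overlapped in both marks. No H3K4me1 peak touched its promoter in any of 6 libraries, and none touched that of SOX12.

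SOX4 (chr6:21593751-21598619), the close relative of SOX11, had H3K4me3 peaks of 5.99, 6.22 and 5.16 kb in DMSO and 5.86, 5.80 and 5.56 kb in doxycycline. SOX12 had 5.51, 5.93 and 5.46 kb in DMSO and 5.93, 5.46 and 5.2 kb in doxycycline. FOXO3 (chr6:108559835-108684774), which answers to insulin and stress signals, had 5.84, 5.82 and 5.62 kb in DMSO and 6.42, 6.13 and 6.20 kb in doxycycline. The treatments overlapped for SOX4 and SOX12. For FOXO3 the 3 doxycycline peaks were the longer, but its H3K4me3 cover within 20 kb overlapped between treatments. No share of all genes is given for peak length, so no difference is read from it. SOX4, SOX12 and FOXO3 had means of 5.79, 5.63 and 5.76 kb in DMSO, which differ by less than their spread, above 98.4% to 98.6% of genes. Active FOX and SOX genes had a median longest H3K4me3 peak of 3.23 kb against 2.36 kb over 11864 active genes, and their median fold enrichment over input was 35.4 against 33.4.

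FOXM1 (chr12:2857680-2877174), which drives mitotic genes, was active in all libraries, though its start lies within 2 kb of RHNO1 and TULP3. Its highest H3K4me3 fold enrichment was 29.1, 38.6 and 20.1 in DMSO and 34.0, 52.5 and 24.2 in doxycycline, with no H3K27me3 peak within 20 kb in any library. FOXO1 (chr13:40555667-40666641), the partner of PAX3 in fusion-positive rhabdomyosarcoma, was active but had an H3K27me3 promoter peak in 2 of 3 libraries of both treatments. SOX5 (chr12:23529504-24562544), a factor of neural crest and cartilage without an activation domain, had an H3K27me3 promoter peak in DMSO replicates 1 and 3 and doxycycline replicate 3, with H3K4me3 at 11 of its 20 start sites in both treatments.

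The bivalent genes in DMSO included FOXA1, FOXA3, FOXC1, FOXD1, FOXD2, FOXD3, FOXE1, FOXE3, FOXJ1, FOXL1, FOXL2, FOXL2NB, FOXP1, SOX2, SOX3, SOX6, SOX9, SOX13, SOX18, SOX21 and SOX30. In 21 of the 22 both marks touched the window of the same start site (87.5% of all bivalent genes), FOXP1 being the exception, and in doxycycline in 23 of 23. H3K27ac was present as well in 7 (FOXA3, FOXC1, FOXD2, FOXP1, SOX2, SOX6, SOX9), against 37.1% of all bivalent genes, and in 8 in doxycycline. These counts pool all start sites of a gene. In SOX6 the 2 start sites with H3K27ac in DMSO had H3K4me3 but were not those with H3K27me3. FOXP1 had no start site with both H3K4me3 and H3K27me3 in all 3 libraries. The median H3K4me3 fold enrichment of the 22 bivalent genes was 15.0 in DMSO, that of all bivalent genes 17.4. Lists of peaks from many cells cannot tell both marks on the same chromatin from cells of different states.

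FOXD3 (chr1:63322567-63325128), a specifier of neural crest, had a highest H3K4me3 fold enrichment of 27.5, 39.0 and 17.8 in DMSO and 31.4, 35.7 and 21.3 in doxycycline. Its H3K27me3 fold enrichment was 5.11, 4.44 and 3.33 in DMSO and 4.41, 4.26 and 3.88 in doxycycline. Fold enrichment depends on the depth, which differed between treatments, so such values describe the peaks and no difference between treatments is read from them. H3K27ac touched its promoter in DMSO replicates 1 and 2 and doxycycline replicate 1.

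SOX9 (chr17:72121020-72126416), which acts in neural crest, cartilage and glia, carried H3K4me3, H3K27ac and H3K27me3 in all 6 libraries of each mark. Its H3K4me3 fold enrichment was 25.4, 32.8 and 18.1 in DMSO and 34.3, 28 and 22.5 in doxycycline, and that of H3K27me3 2.47, 3.02 and 2.33 and then 2.73, 2.41 and 2.86. Within 20 kb of its start H3K27me3 covered 4.39, 2.64 and 1.74 kb in DMSO and 4.72, 4.10 and 1.59 kb in doxycycline, a small part of the window. FOXC1 (chr6:1609915-1613897), a mesenchymal and vascular factor, had the same 3 marks, with 7.92, 7.97 and 7.44 kb of H3K4me3 in DMSO and 8.43, 8.97 and 6.62 kb in doxycycline.

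FOXA1 (chr14:37589552-37596059), a pioneer factor of endoderm whose start lies within 2 kb of TTC6, had the weakest bivalent H3K4me3 in DMSO, with fold enrichments of 6.40, 7.20 and 4.25 in DMSO and 9.40, 7.66 and 7.45 in doxycycline. FOXD1 (chr5:73444827-73448777), a factor of kidney stroma, had 23.9, 26.9 and 17.8 in DMSO and 18.3, 28.6 and 11.7 in doxycycline. FOXA1 was thus the weaker of the pair in every library. No H3K27ac lay within 20 kb of FOXA1 in any library. SOX6 (chr11:15966449-16739591), a partner of SOX5 whose window shares a start with C11orf58, had H3K4me3 at 4 of 17 start sites, and in DMSO 2 of those also had H3K27me3.

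The Polycomb genes in DMSO were FOXA2, FOXB1, FOXB2, FOXC2, FOXD4, FOXD4L1, FOXD4L3, FOXD4L4, FOXD4L6, FOXF1, FOXF2, FOXI2, FOXI3, FOXL3, FOXP2, FOXQ1, SOX1, SOX8, SOX14 and SOX17. In 18 of the 20 no library of either treatment had an H3K27ac peak in the 20 kb flanks, FOXC2 and SOX8 being the others. Over all Polycomb genes 19.8% had an H3K27ac flank peak in all 3 DMSO libraries, and 2 of the 20 did. Their median H3K27me3 fold enrichment was 4.19 in DMSO against 3.28 for all Polycomb genes, and their median longest peak 18.3 kb against 11.2 kb.

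FOXB1 (chr15:60004234-60061730), a factor of hypothalamus and midbrain, had the most H3K27me3 in kb within 20 kb of its start sites, which span a merged window of 71.9 kb, with 67.19, 32.32 and 29.94 kb in DMSO and 65.23, 63.66 and 24.83 kb in doxycycline. FOXL3 (chr7:290170-294422) was covered nearly end to end, with 41.18, 40.68 and 34.96 kb in DMSO and 41.18, 41.18 and 40.73 kb in doxycycline of a window of 41.2 kb. The bivalent SOX13 (chr1:204073115-204127743), with a window of 89.3 kb, had 49.96, 32.47 and 24.98 kb in DMSO and 52.40, 47.46 and 27.77 kb in doxycycline. The lists with the long fragment estimate (DMSO 1, doxycycline 1 and 2) were the highest for FOXB1 and SOX13, and the part of that estimate in the values was not tested. As a share of its window the DMSO mean was highest in FOXL3 (94.6%), FOXF1 (90.3%), FOXL1 (86.4%) and FOXF2 (85.1%), against 60.0% in FOXB1 and 40.1% in SOX13.

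FOXF1 (chr16:86510527-86515422), a factor of lung and gut mesenchyme, had 37.89, 37 and 33.44 kb of H3K27me3 in DMSO and 37.98, 38.15 and 31.88 kb in doxycycline, and no H3K4me3 within 20 kb in any library. FOXP2 (chr7:114086327-114693772), a factor of speech-related circuits, had H3K27me3 in all libraries at 9 of its 30 start sites in both treatments, and an H3K4me3 peak in 1 of 3 libraries of each treatment. FOXC2, FOXI2 and FOXQ1 had the marks of the Polycomb state in each of the 30 lists.

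**Figure D3:**
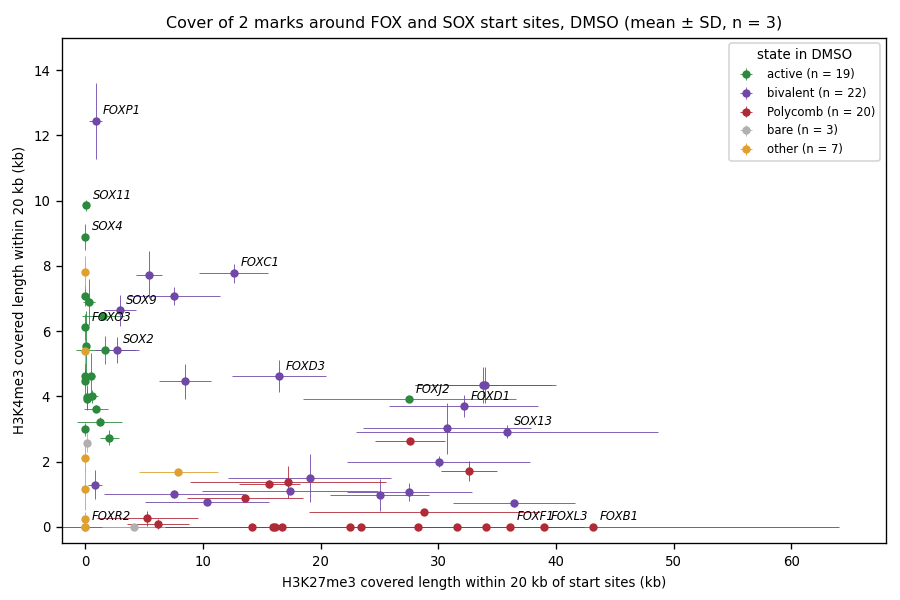
Covered length within 20 kb of start sites in DMSO, H3K27me3 on the horizontal and H3K4me3 on the vertical axis (kb), for each FOX and SOX gene (points, mean; lines, SD; n = 3; colour, state). SOX11 and SOX4 lie high with almost no H3K27me3. FOXB1, FOXL3 and FOXF1 lie along the horizontal axis at 36.11 to 43.15 kb, and most bivalent genes lie between. The bivalent FOXP1 has the most H3K4me3 in kb and little H3K27me3, but its start sites span a merged window of 544.9 kb. H3K4me3 covered 2.29% of that window, against 24.6% of the 40.0 kb window of SOX11.

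The bare genes in DMSO were FOXD4L5, FOXP3 and FOXR2. FOXR2 (chrX:55623400-55626192), which binds and stabilises MYC proteins and is activated in some neuroblastomas, had no H3K4me3, H3K4me2, H3K4me1 or H3K27ac within 20 kb in any of the 24 lists of those marks, and H3K27me3 of 1.89 kb and 0.43 kb in doxycycline replicates 1 and 3 alone. FOXD4L5, a copy of FOXD4 whose peaks are uncertain, had an H3K27me3 promoter peak in 2 of 3 libraries of each treatment and one in the flanks in 3 of 3. FOXP3, which specifies regulatory T cells, had an H3K27me3 promoter peak in 1 of 3 libraries of each treatment. The other genes were FOXH1, FOXI1, FOXN1, FOXR1, FOXS1, SOX10 and SOX15. None of these 7 had an H3K4me3 or H3K27me3 promoter peak in any library.

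SOX10 (chr22:37970686-37987422), the defining factor of neural crest and Schwann cells, had H3K27ac at its promoter in 3 of 3 libraries of both treatments without H3K4me3. That pools 9 start sites, of which 5 had H3K27ac in all 3 libraries in DMSO and 2 in doxycycline. With the canonical start site alone its state differed between treatments. The H3K27ac fold enrichment was low, 2.02, 2.24 and 1.89 in DMSO and 2.29, 2.37 and 1.91 in doxycycline. Around its start sites H3K27ac covered 10.99, 9.44 and 5.01 kb in DMSO and 14.25, 10.98 and 7.87 kb in doxycycline, and the treatments overlapped. Its start sites lie within 2 kb of a start of POLR2F, and whose start the peaks belong to was not tested.

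**Figure D4:**
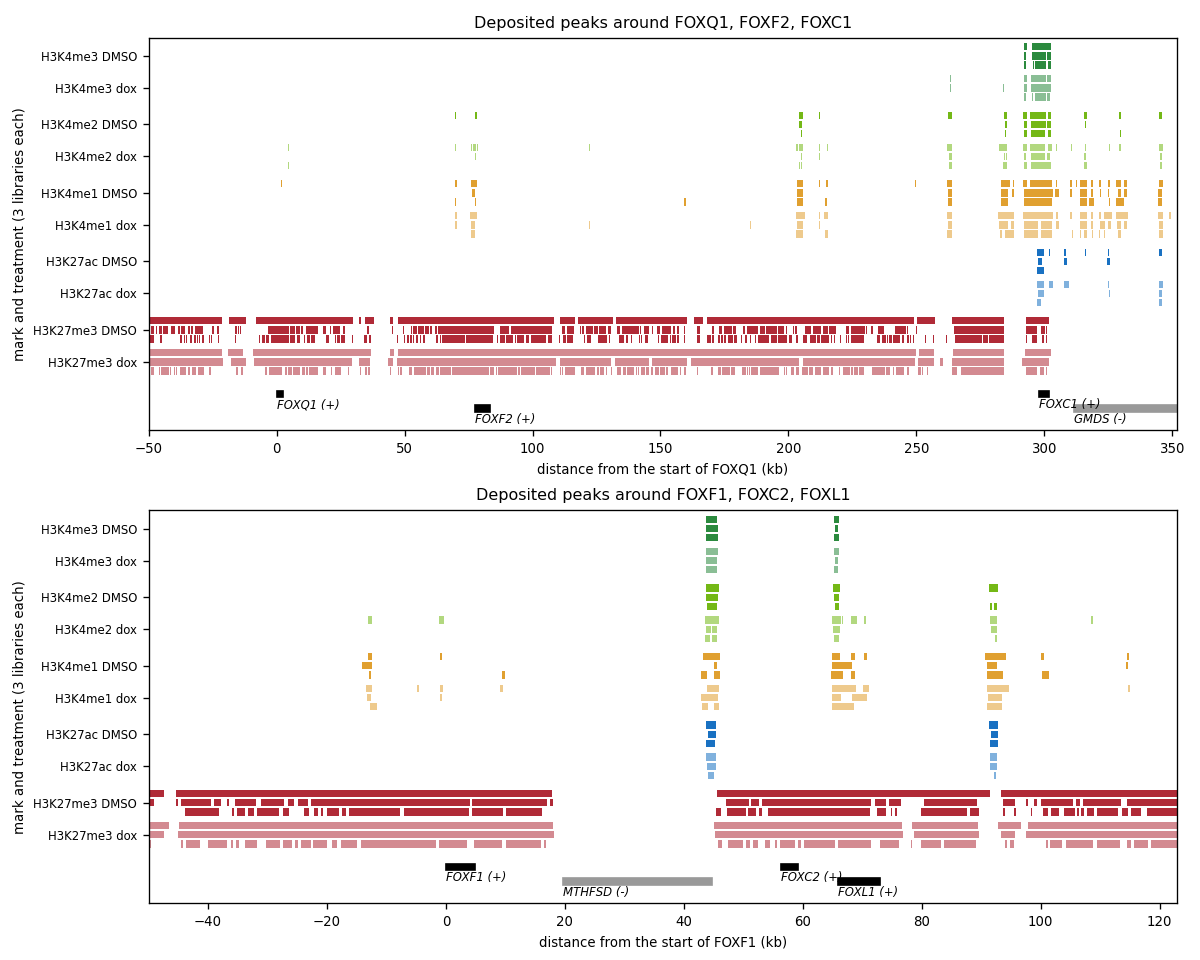
Deposited peaks (blocks) around the gene clusters FOXQ1, FOXF2, FOXC1 and FOXF1, FOXC2, FOXL1, by mark and treatment with 3 libraries each (rows, replicates 1 to 3 from above), against the distance from the start of the first gene (kb). H3K27me3 spans FOXQ1 and FOXF2, reaches FOXC1, is absent over MTHFSD and GMDS, and it is broken into many short peaks in DMSO replicates 2 and 3 and doxycycline replicate 3.

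Neighbouring forkhead genes differed in state. On chromosome 6 FOXQ1, FOXF2 and FOXC1 lie within 302.0 kb, and only FOXC1, at the edge next to GMDS, had H3K4me3 at its start. H3K27me3 covered 307.0, 191.0 and 162.0 kb of a window of 402.0 kb (chr6:1262098-1663897) in DMSO and 321.0, 312.0 and 192.0 kb in doxycycline. The number of peaks in that window was 15, 88 and 120 in DMSO and 8, 15 and 111 in doxycycline. The 3 lists with the long fragment estimate covered 307.0 to 321.0 kb and the 3 with the short one 162.0 to 192.0 kb. The part of the estimate was not tested.

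On chromosome 16 FOXF1, FOXC2 and FOXL1 lie within 73.0 kb (window chr16:86460527-86633478). FOXF1 and FOXC2 were Polycomb and FOXL1, a factor of gut mesenchyme, bivalent in both treatments. H3K27me3 covered 141.0, 117.0 and 100.0 kb in DMSO and 138.0, 136.0 and 99.8 kb in doxycycline. A single H3K27me3 peak reached the promoters of both FOXC2 and FOXL1 in each DMSO library and in 2 of 3 with doxycycline, and in no library did one reach from FOXF1 to FOXC2, on the other side of MTHFSD.

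Between treatments 5 of the 71 genes differed in state, 7.04% against 7.05% of all genes, so the share was at the background with the peaks as deposited. Each rested on a single library. FOXJ2 (chr12:8032716-8055517) went from active to bivalent, with an H3K27me3 promoter peak in 2 of 3 and then 3 of 3 libraries. FOXP1 (chr3:70954693-71583978), a factor of lymphoid and neural cells with 67 annotated start sites, went from bivalent to active, with H3K27me3 in 3 of 3 and then 2 of 3 libraries and at no single start site in all 3. SOX8 (chr16:981770-986979) went from Polycomb to bivalent, with H3K4me3 in 2 of 3 and then 3 of 3 libraries.

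SOX8 had H3K4me3 fold enrichments of 3.5 and 4.04 in DMSO replicates 1 and 2 and 7.38, 5.43 and 4.76 in doxycycline. Its start lies within 2 kb of LMF1. FOXD4L1 went from Polycomb to bare (H3K27me3 in 3 of 3 and then 2 of 3 libraries) and FOXR1 from other to bare (H3K4me1 in 3 of 3 and then 2 of 3). Without replicate 3 in both treatments 4 genes differed (FOXB2, FOXD4L4, FOXR1, SOX1), and FOXJ2, FOXP1, SOX8 and FOXD4L1 did not. At a q of 0.001 or less 10 differed, 14.1% against 8.15% of all genes, and of these only SOX8 was among the 5. No gene had a promoter peak in 3 of 3 libraries of one treatment and 0 of 3 of the other, in any of the 5 marks. The shares of all genes were 0.174% for H3K4me3, 0.0374% for H3K4me2, 0.383% for H3K4me1, 0.462% for H3K27ac and 0.535% for H3K27me3.

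The covered length, the bases under peaks within 20 kb of the start sites, gave a measure per library. A gene was called higher or lower where the 3 libraries of a treatment did not overlap those of the other. The exact two-sided permutation test over the 20 assignments of libraries cannot give a p below 0.1, so no gene could pass 0.05, and the smallest adjusted p of a FOX or SOX gene was 0.689, for H3K27ac.

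In H3K4me3, with cover at 59 of the 71 genes, none was higher and SOX5 lower, against 2.39% and 6.51% of all genes. SOX5 had 6.56, 6.37 and 6.51 kb in DMSO and 6.16, 6.30 and 5.83 kb in doxycycline, a difference of -0.38 kb. In H3K4me2 none of 67 was higher or lower, against 0.848% and 0.658% of all genes. In H3K27me3 none of 60 was higher or lower, against 1.19% and 0.0877%. Leaving out a library makes overlap less frequent by construction. Without doxycycline replicate 3, 19 genes were called for H3K4me3 (32.2% against 24.6% of all genes) and 15 for H3K27me3 (25.4% against 24.2%). Without DMSO replicate 1, 16 were called for H3K4me2 (23.9% against 21.9%) and 9 for H3K27me3 (15.0% against 25.7%).

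In H3K4me1, 4 of 69 genes were higher (FOXC2, FOXD1, FOXD4L3, FOXL1) and 4 lower (FOXE3, FOXK2, FOXN3, SOX12), against 2.32% and 6.86% of all genes. FOXC2 had 5.48, 4.08 and 4.54 kb in DMSO and 7.14, 6.85 and 5.61 kb in doxycycline. FOXD4L3, whose reads are uncertain, had 0.68, 0.68 and 0.90 kb and then 2.64, 2.46 and 1.84 kb. The 4 genes with more H3K4me1 were bivalent or Polycomb.

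FOXN3, a checkpoint suppressor, had 67.84, 53.71 and 55.95 kb of H3K4me1 in DMSO and 49.98, 43.24 and 50.04 kb in doxycycline, a difference of -11.41 kb. FOXK2 (chr17:82519713-82644662), a repressor that binds with chromatin complexes, had 25.06, 22.08 and 16.08 kb and then 15.28, 11.91 and 12.74 kb, a difference of -7.76 kb. Of the 4 genes with less H3K4me1, 3 were active, as were 26.8% of the 71 genes and 59.4% of all genes in DMSO. No share by state is given for all genes called, so no link of state and direction is read. FOXE3, a lens factor, was bivalent. With any single library left out 11 to 17 genes were called for H3K4me1, 15.9% to 25.8% against 13.7% to 25.2% of all genes.

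In H3K27ac, 2 of 41 genes were higher (FOXK2, FOXO3B) and 3 lower (FOXJ3, FOXO1, SOX2), against 4.23% and 10.3% of all genes. FOXK2 had 28.11, 27.55 and 16.45 kb in DMSO and 50.42, 29.72 and 28.38 kb in doxycycline, so doxycycline replicate 1 stood far above the rest. FOXO1 had 8.31, 7.25 and 8.91 kb and then 7.05, 3.80 and 3.91 kb, a difference of -3.24 kb. FOXJ3 had 7.58, 7.54 and 8.15 kb and then 7.02, 4.91 and 5.10 kb.

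SOX2 (chr3:181711925-181714436), the stem and neural progenitor factor, had 3.33, 2.83 and 4.21 kb of H3K27ac in DMSO and 1.51, 2.37 and 1.34 kb in doxycycline, a difference of -1.72 kb. At the same gene H3K27me3 covered 4.82, 1.63 and 1.52 kb in DMSO and 5.64, 6.28 and 3.09 kb in doxycycline, which overlapped. Its highest values were those of the lists with the long fragment estimate (DMSO 1, doxycycline 1 and 2). The part of that estimate was not tested. H3K4me3 at SOX2 covered 5.22, 5.87 and 5.17 kb and then 5.22, 5.18 and 4.63 kb. FOXO3B had 3.24, 3.54 and 2.74 kb of H3K27ac in DMSO and 3.68, 3.77 and 3.89 kb in doxycycline. With any single library left out 7 to 11 genes were called for H3K27ac, 17.1% to 26.8% against 19.6% to 28.2% of all genes.

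**Figure D5:**
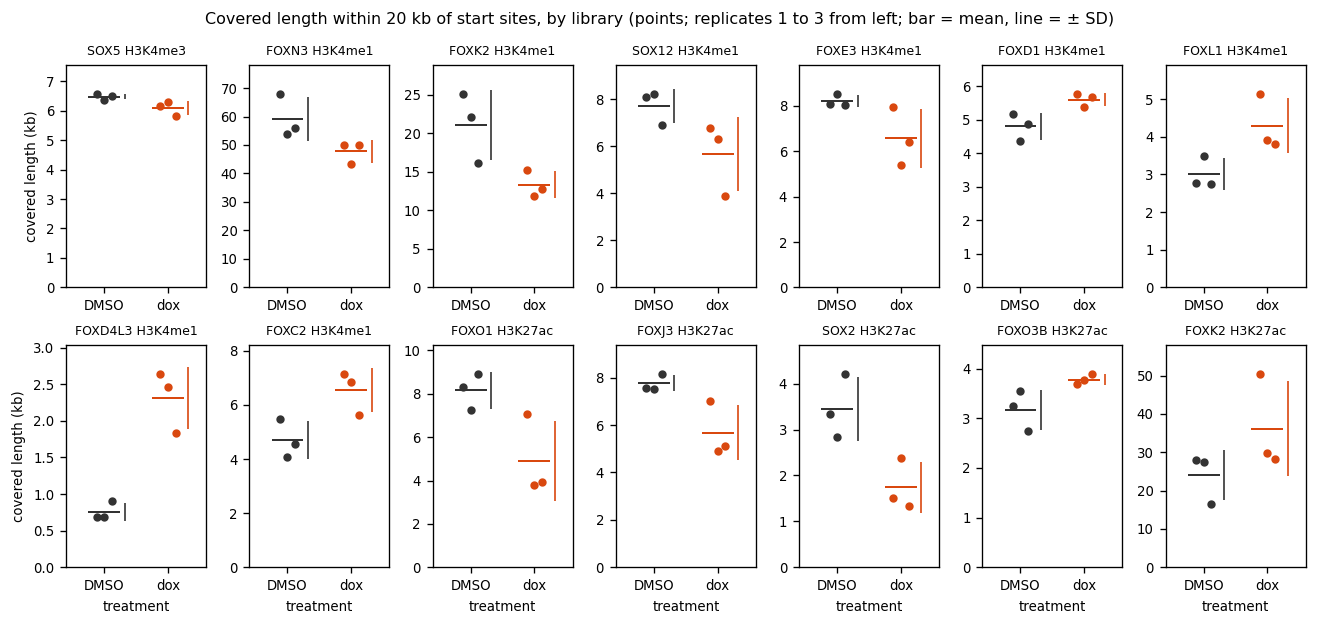
Covered length within 20 kb of start sites (vertical axis, kb, from 0) in each library (points) of DMSO and doxycycline for the 14 pairs of gene and mark whose treatments did not overlap; bars are means and lines SD (n = 3). The gap between treatments is narrow for SOX5 H3K4me3 and FOXK2 H3K27ac and wider for FOXD4L3 H3K4me1.

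Same-numbered libraries of the 2 treatments deviated together for H3K4me3, H3K4me2 and H3K4me1, so pairs were compared as well. In H3K4me3, 11 of 59 genes were higher in doxycycline in all 3 pairs and 9 lower, against 12.4% and 30.7% of all genes. In H3K4me2, 20 of 67 were higher and 0 lower, against 18.5% and 2.77%. In H3K4me1, 13 of 69 were higher and 15 lower, against 11.3% and 29.2%. The smallest p of 3 pairs by sign flips is 0.25, so none of these counts rests on a test of the single gene.

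The pairs were also counted by state. Among 18 genes active in both treatments 1 was higher (FOXO3) and 6 lower (FOXJ3, FOXK2, FOXN2, FOXN3, FOXP4, SOX5) in H3K4me3, while among 21 bivalent in both 6 were higher (among them FOXA1, FOXD1, FOXL2, FOXL2NB and SOX9) and 1 lower (FOXJ1). Over all genes of these states 10.1% and 33.8% of active genes and 22.6% and 20.9% of bivalent genes were higher and lower. In H3K4me1, 1 active gene was higher (SOX11) and 9 lower, and 7 bivalent genes were higher and 4 lower, against 10.1% and 31.4% of active and 19.8% and 24.7% of bivalent genes. In H3K4me2 no gene of these states was lower, against 2.7% of all active and 1.9% of all bivalent genes. There 2 active and 9 bivalent genes were higher, against 15.2% and 35.9% of all genes of these states. Of 18 genes that were Polycomb in both treatments 1 was higher in H3K4me3, 5 in H3K4me2 and 4 in H3K4me1, and 0 were lower. Over all such genes 5.62%, 16.7% and 13.8% were higher and 8.48%, 0.991% and 10.8% lower. FOXL2 and FOXL2NB share a window, and the difference between states was not tested.

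FOXA1, for example, had 1.09, 1.41 and 0.43 kb of H3K4me3 in DMSO and 1.51, 1.56 and 1.10 kb in doxycycline, higher in 3 of 3 pairs while the treatments overlapped. FOXA1 also had more H3K4me2 (2.81, 1.64 and 0.34 kb, then 3.82, 2.14 and 2.05 kb) and more H3K4me1 (3.45, 2.66 and 1.61 kb, then 4.58, 3.60 and 1.79 kb) in each pair. FOXD1 was higher in 3 of 3 pairs in the same 3 marks, with 3.81, 3.96 and 3.32 kb and then 4.62, 4.30 and 3.46 kb of H3K4me3.

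With limma on log2 covered length, no FOX or SOX gene had an adjusted p below 0.05 in any mark. The shares of all genes called were 0.0121% for H3K4me3, 0.0% for H3K4me2, 0.0% for H3K4me1, 0.66% for H3K27ac and 0.0% for H3K27me3. At an unadjusted p below 0.05 limma had 1 of 55, 1 of 60, 4 of 64, 3 of 40 and 0 of 55 genes in that order of marks (1.82%, 1.67%, 6.25%, 7.5% and 0.0%), against 4.24%, 0.848%, 6.38%, 10.7% and 0.586% of all genes. With the replicate number as a block the shares were 0.807%, 0.263%, 3.2%, 1.82% and 0.0%, and FOXK2 alone was called, for H3K4me1, with a limma adjusted p of 0.0378 and less cover in 3 of 3 pairs.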

How the data were processed

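ChIP-seq of 5 histone marks in KELLY cells (3 libraries per mark and treatment) was analysed from the deposited peak lists. The 4 input samples entered only through the peak calls. The authors aligned reads to hg38 with Bowtie2, kept mapping quality of at least 30 and called peaks per library with MACS2 2.1.1.20160309 against input, broad for H3K4me1, H3K27ac and H3K27me3 (q of 0.05, linked at 0.1, per the file headers) and narrow for H3K4me2 and H3K4me3 (p of 1e-05), so presence is not on 1 cutoff across marks. The deposited pileup signal, −log10 p-value, −log10 q-value and fold enrichment ratio depend on depth and input, so they served to describe or filter peaks, and treatments were compared by peak presence, peak length and covered length.

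Genes and start sites came from GENCODE release 44 (hg38), with python 3.11.15, pandas 2.3.3, scipy 1.17.1, Biopython 1.88 (promoter identity) and, for alternatives, limma 3.58.1 on log2(covered bp + 100). Adjusted p-values are Benjamini-Hochberg over all protein-coding genes with cover. The overlap code was checked against bedtools 2.31.1 and tested on simulated data. The depth behind each peak is unknown, since the lists hold no read counts per region.

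Members and gene lists were chosen with earlier results of these data known. Values per library are given for neural crest and neuroblastoma genes, genes that differed between treatments, those with the most cover and examples of each state. Same-numbered libraries correlated (deviations from group means) at 0.287 to 0.524 for H3K4me3, 0.138 to 0.543 for H3K4me2 and 0.114 to 0.418 for H3K4me1, and at 0.0721 at the lowest for H3K27ac and -0.045 for H3K27me3. The pairing thus comes from the data and was used for the first 3 marks, where every correlation exceeded 0.1. Alternatives covered peak strength, list length, promoter width, start sites, overlap, gene copies, each replicate, the replicate block and limma. The values of 1 gene of the set are counted but not reported here by name.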

Additional observations from a re-analysis of the deposited data

How the results depend on the processing

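Of 362 values under alternatives, 290 stayed within their spread or within 1.5 times the reported count and 72 moved. At a q of 0.001 or less 14 genes were bivalent in DMSO, 12 bare in DMSO and 13 bare in doxycycline. There 10 differed in state (14.1%, all genes 8.15%), and 2 were called for H3K4me1 cover. With lists of equal length 5 were bare in DMSO and 3 called for H3K4me3. With the canonical start site alone 7 and 9 were bare in DMSO and doxycycline, and with at least 200 bp covered 5 in DMSO. Without the FOXD4 copies and FOXL2NB 3 were bare in doxycycline, and with 2 of 3 libraries 2. Over gene bodies plus 20 kb 0 were called for H3K4me3 and 8 for H3K27ac. The causes were not tested. With the replicate block (same direction in all 3 pairs) 20 were called for H3K4me3, 20 for H3K4me2, 28 for H3K4me1, 16 for H3K27ac (17.1% higher and 22% lower, all genes 17.4% and 23%) and 15 for H3K27me3 (25% higher, all genes 31.0%). The last 2 marks were not taken as paired, since not all their correlations exceeded 0.1 (lowest 0.0721 and -0.045). In them 5 and 3 of 6 libraries correlated best with their own number, against 6, 4 and 6 for H3K4me3, H3K4me2 and H3K4me1. By that count H3K27ac stood above H3K4me2. limma called 0 for H3K4me3, H3K4me1 and H3K27ac, and with the replicate block 0, 1 and 0. Leaving out replicates, singly or by number, gave 0 to 3 genes with separating promoter peaks, 3 to 5 bare in doxycycline, and cover calls of 1 to 27 for H3K4me3, 0 to 18 for H3K4me2, 11 to 24 for H3K4me1, 7 to 14 for H3K27ac and 0 to 15 for H3K27me3; fewer libraries overlap less often by construction. The largest moves came without replicate 3 in both treatments, without doxycycline replicate 3 and without DMSO replicate 1. The first gave 27 for H3K4me3 and 14 for H3K27ac. The second gave 19 for H3K4me3 (32.2%, all genes 24.6%) and 15 for H3K27me3 (25.4%, all genes 24.2%). The third gave 16 for H3K4me2 (23.9%, all genes 21.9%). A count printed here without a share of all genes shows how far the setting moved it. Such a count is not read as a trait of these genes. Weak peaks are limited by depth, which differed between treatments in all lists.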

Other observations

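The 6 promoters of FOXD4 and its copies that RefSeq holds were 48.7% to 97.7% identical over 300 bases in 15 pairs (median 53.7%), and FOXD4 and FOXD4L6 were the pair at 97.7%. FOXD4 and FOXD4L6 were both Polycomb in both treatments. FOXO3 and FOXO3B were at most 57.3% identical over such windows, and both were active.

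A promoter peak in 1 or 2 of 3 libraries was found at 9 of the 71 genes in DMSO and 14 in doxycycline for H3K4me2 (5.8% and 6.01% of all genes, 12.7% and 19.7% of these). For H3K4me1 there were 8 and 16 (11.3% and 22.5%, all genes 14.5% and 13.3%), and for H3K4me3 4 and 4 (5.63% each, all genes 1.61% and 1.93%). FOXB2 had an H3K4me2 promoter peak in 1 of 3 libraries with DMSO and 3 of 3 with doxycycline, and SOX8 likewise. FOXN2 had H3K4me1 in 2 of 3 with DMSO and 0 of 3 with doxycycline. FOXJ1, the master factor of motile cilia, had H3K27ac in 2 of 3 and then 0 of 3. Each was chosen after its values were seen.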
